A study of Homo sapiens with 8 samples.

Results

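The genes described here are 10 regulators and markers of autophagy and the lysosome: ULK1, BECN1, WIPI1, ATG5, MAP1LC3B, GABARAPL1, GABARAPL2, SQSTM1, TFEB and LAMP1. They were chosen by symbol for their known roles, with earlier results of these data known, and each symbol matched 1 gene identifier among the 63677 genes counted. RNA was sequenced from the multiple myeloma (MM) cell lines JJN3 and H929, both established from malignant plasma cells. Cells had received THZ1, a covalent inhibitor of the transcriptional kinase CDK7, at 50 nM, or its vehicle DMSO, and RNA was taken after 24 h. Each of the 4 groups (JJN3 with DMSO, JJN3 with THZ1, H929 with DMSO and H929 with THZ1) had 2 libraries, 8 in all. No genetic change was introduced in any group, and the sources used here do not say whether the 2 libraries of a group came from separate cultures, so p-values measure the spread between libraries, which may be technical.

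Autophagy encloses cytoplasm in a double membrane, the autophagosome, and delivers it to the lysosome for degradation. The ULK1 kinase starts the process, the class III PI3 kinase complex with Beclin 1 (BECN1) makes the lipid that WIPI proteins read, and the ATG5 conjugate attaches ATG8 proteins (the LC3 and GABARAP families) to the growing membrane. Cargo receptors such as p62 (SQSTM1) bind both ubiquitin and ATG8 proteins, and TFEB is a transcription factor that activates genes of the lysosome and of autophagy, recognising the E-box letters CACGTG within a longer palindrome, the CLEAR motif. Plasma cells secrete large amounts of immunoglobulin and are known to rely on autophagy and the proteasome to keep their proteins in balance.

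The promoters were compared for these letters because TFEB is itself among the genes. In the RefSeq promoter windows of GRCh38.p14, which run from 250 bases before a start site to 50 after it, all 10 genes had an entry, and LAMP1 was the only one holding CACGTG. It held 6 copies, more than any other of the 35116 windows in the table. Of all windows, 7.26% held CACGTG at least once, and 8.77% of the 27305 genes with a window did so in any of their windows. The copies lie on chromosome 13 and are shown 5′ to 3′ on the plus strand with 4 flanking bases on each side and the E-box in capitals.
LAMP1 chr13:113297043-113297056: gggtCACGTGggtc
LAMP1 chr13:113297059-113297072: gggtCACGTGccgc
LAMP1 chr13:113297076-113297089: gggtCACGTGccgc
LAMP1 chr13:113297093-113297106: gggtCACGTGtcgg
LAMP1 chr13:113297207-113297220: ggatCACGTGacgc
LAMP1 chr13:113297234-113297247: agctCACGTGacaa

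Counted from the start site, the first 4 copies began between positions -192 and -142, and the others began at -28 and -1. The palindromic form TCACGTGA, which contains CACGTG, was found in LAMP1 among the 10 genes, in the last 2 copies above. It was in 0.98% of all windows and 1.18% of all genes with a window. The CLEAR motif was searched only as an exact string of 10 letters, with no other letter allowed at any position. That exact string was in none of the 10 genes' windows and in 0.353% of all. The last 2 LAMP1 copies above differ from it in its first letter only. The absence of the exact string therefore does not show that LAMP1 lacks a CLEAR element. CACGTG reads the same on both strands, as do both longer forms. A match of letters is a description of the sequence and not a binding site, and the deposited data used here hold no measurement of TFEB binding.

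Total counts on genes lay between 17476443 and 19194371 per library, at which 3 counts, the limit that a count of 0 allows, correspond to 0.156 to 0.172 CPM (counts after every library is scaled to the same total). This limit covers counting error only, since reads are not independent molecules here. All 8 plasma cell markers examined were above 3 counts in both libraries of JJN3 with DMSO, JJN3 with THZ1 and H929 with THZ1, and 7 of 8 in those labelled H929 DMSO. The libraries labelled H929 differed between the labels in more than a treatment. Lambda genes took 98.0% to 99.99% of the light chain V counts with the label H929 DMSO and 0.211% to 0.212% with the label H929 THZ1, whereas the share was 0.257% to 0.391% in all JJN3 libraries. Across 8958 genes, which are not independent replicates, log2 CPM correlated at 0.609 to 0.672 between the H929 labels, and at 0.922 to 0.936 between JJN3 with DMSO and JJN3 with THZ1. Marker sums differed as well. Between the labels H929 DMSO and H929 THZ1 the plasma cell markers summed to 1762 to 1921 and 7072 to 7160 CPM. MZB1 (350 and 382.1 CPM against 185.6 and 175.9) and CD38 (96.54 and 91.7 CPM against 65.86 and 64.04) went the other way. The T cell markers summed to 2.24 to 2.55 and 37.7 to 38.2 CPM, and CD3E made up most of the sum with the THZ1 label. CD3G (1.279 and 0.6653 CPM against 0.05425 and 0) and CD3D, at most 0.2218 CPM in any library, went the other way. The stromal and epithelial markers summed to 217.7 to 222.7 CPM with the label H929 DMSO, mostly EPCAM and KRT18, and to 1.42 to 1.79 CPM with the label H929 THZ1. Of the 5 myeloid markers only ITGAM differed by more than 1 CPM, with 32.4 and 25.7 CPM under the label H929 DMSO and 0 counts under the label H929 THZ1, while CD14, LYZ, CSF1R and FCGR3A were at or below 0.746 CPM in every library. The part of these differences in the H929 values of the 10 genes was not tested. The second library labelled H929 DMSO also held 597 kappa V counts, against 3 in the first. Between the H929 labels, treatment and the source of the cells cannot be told apart, so JJN3 carries the comparison of THZ1 with DMSO and the H929 values are given as labelled. In bulk RNA, fewer cells of a type and less RNA per cell cannot be told apart either.

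In JJN3, LAMP1, MAP1LC3B and GABARAPL2 rose after THZ1, by 2.34-fold, 2.00-fold and 1.64-fold. ULK1 and GABARAPL1 had higher values, and WIPI1 a lower one, by less than the limit on size. SQSTM1, BECN1, ATG5 and TFEB did not pass the test at an adjusted p-value under 0.05 in edgeR. The sizes of the WIPI1 and TFEB values, both negative, depended on 1 library. A gene was called by edgeR's quasi-likelihood test when its Benjamini-Hochberg adjusted p-value was below 0.05 and its log2 fold change exceeded 0.5 in size. All 10 genes passed the filter on low counts. Of them, 3 were called higher, beside 20.6% of the 13984 genes tested in JJN3. None was called lower by edgeR, beside 21.3% of all genes, with 2 of the 10 lower at an unadjusted p-value under 0.05 and 0 called lower by DESeq2. In either direction, 3 of 10 were called beside 41.8% of all genes. At an adjusted p-value under 0.05 with no limit on the fold change, 5 were higher and 1 was lower, together 6 of 10 beside 59.0% of all genes. The CPM of the groups did not overlap for 9 of the 10, beside 79.9% of all genes. The median log2 fold change was 0.28 over the 10 and 0.00 over all genes (in absolute value 0.42 and 0.48).

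**Figure D1:**
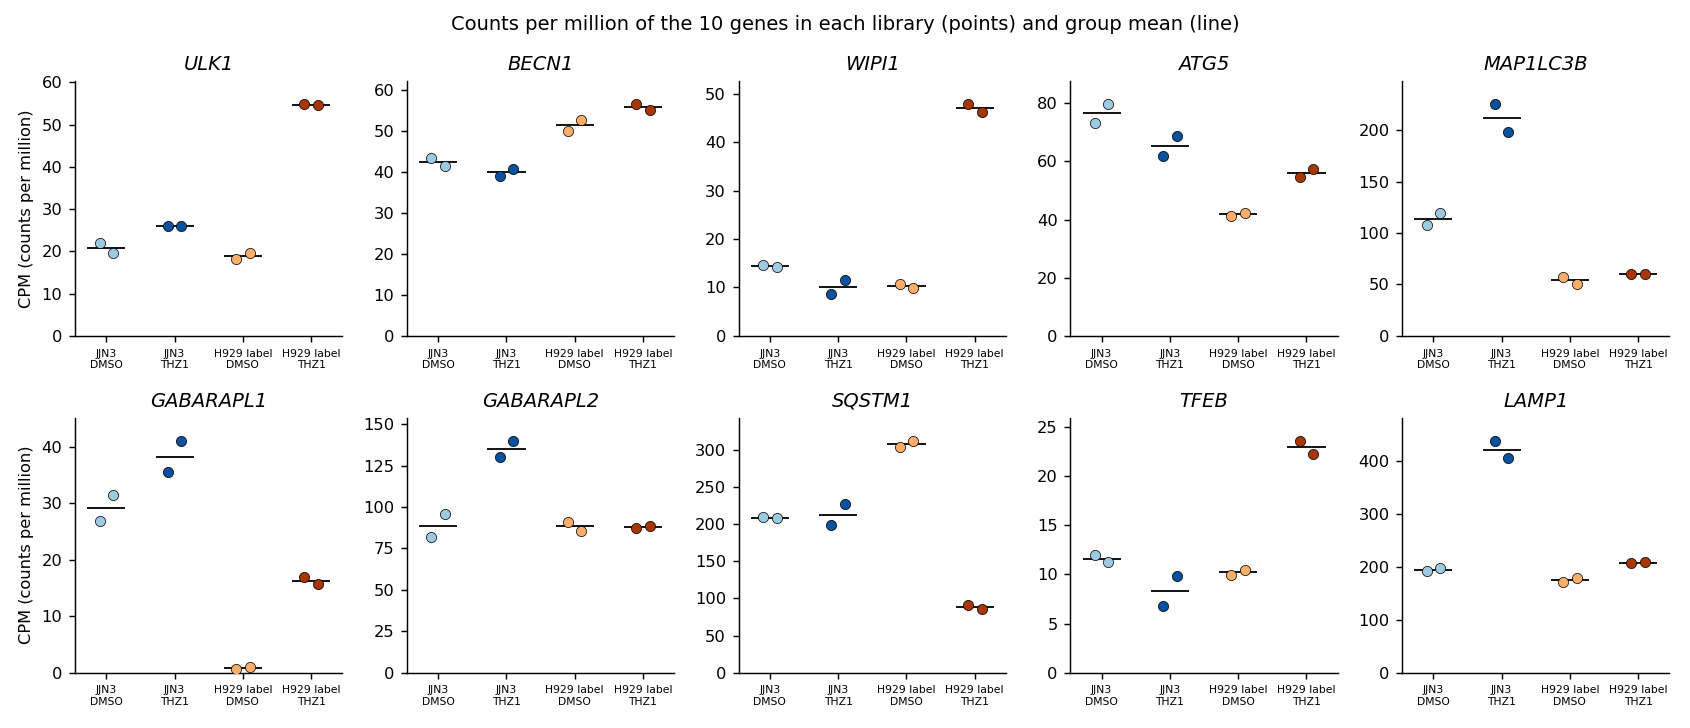
CPM of each of the 10 genes (linear axes from 0, one panel per gene) in the 8 libraries, with each library as a point and the mean of 2 libraries as a line, in JJN3 with DMSO, JJN3 with THZ1 and the libraries labelled H929 with DMSO and THZ1. LAMP1, MAP1LC3B and GABARAPL2 are highest in both JJN3 libraries with THZ1, and ULK1, WIPI1 and TFEB in both libraries labelled H929 THZ1.

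LAMP1 encodes the major glycoprotein of the lysosomal membrane. Its level in JJN3 was 191.4 and 196.7 CPM with DMSO and 437.7 and 405.0 CPM with THZ1. Both THZ1 libraries lay far above both DMSO libraries. The log2 fold change was 1.22 (SE 0.0894, 95% interval 1.03 to 1.42) with an adjusted p-value of 1.76e-06 in edgeR. It lay between 1.12 and 1.31 over all alternatives run for it. LAMP1 is the gene whose promoter window held the 6 E-boxes printed above, while MAP1LC3B and GABARAPL2, which rose as well, held none. The part of these letters in the changes was not tested.

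MAP1LC3B encodes LC3B, the ATG8 protein most used as a marker of autophagosomes. It had 107.6 and 119.8 CPM in JJN3 with DMSO and 225.4 and 198.2 CPM with THZ1, with no overlap. The log2 fold change was 1.00 (SE 0.0974, 95% interval 0.79 to 1.22), with an adjusted p-value of 9.50e-06 in edgeR. GABARAPL2, also called GATE-16, is an ATG8 protein of the GABARAP branch. Its level was 81.95 and 95.49 CPM with DMSO and 130.3 and 139.9 CPM with THZ1, again without overlap. The log2 fold change of 0.71 (SE 0.0879, 95% interval 0.52 to 0.90) had an adjusted p-value of 4.84e-05 in edgeR. GABARAPL1, the third ATG8 gene, had 26.78 and 31.55 CPM with DMSO and 35.53 and 41.06 CPM with THZ1. The groups did not overlap, and its log2 fold change of 0.4967 (SE 0.108, adjusted p-value 0.00227 in edgeR) lay just inside the limit of 0.5. Leaving out each library in turn gave 0.38 to 0.60, and DESeq2 gave 0.51, so that the call of GABARAPL1 turned on the setting.

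Within each library the 3 ATG8 genes were also set against each other per length (RPKM, the CPM per kilobase of merged exons). LC3B made up 38.7% and 37.6% of their summed RPKM in JJN3 with DMSO and 46.2% and 41.0% with THZ1. GABARAPL2 made up 49.3% and 50.1% with DMSO and 44.7% and 48.4% with THZ1. GABARAPL1 made up 11.97% and 12.3% with DMSO and 9.06% and 10.6% with THZ1. The LC3B share was higher with THZ1 in both libraries, and both other shares were lower, without overlap between the groups. These shares have no test here, and they show unequal change within the 3 genes only. Which gene had the largest share depended on the scaling by length. By CPM, LC3B made up 49.7% and 48.5% in JJN3 with DMSO, and GABARAPL2 37.9% and 38.7%.

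The initiating kinase ULK1 had 22.04 and 19.55 CPM in JJN3 with DMSO and 26.04 and 25.91 CPM with THZ1. The groups did not overlap, and the log2 fold change was 0.42 (SE 0.111, 95% interval 0.18 to 0.67, adjusted p-value 0.00681 in edgeR), under the limit. Without the first DMSO library it was 0.51, past the limit, and without the second it was 0.32, with an adjusted p-value of 0.127 in edgeR. BECN1 had 43.4 and 41.51 CPM with DMSO and 39.2 and 40.74 CPM with THZ1. Its log2 fold change was 0.02 (SE 0.0876, 95% interval -0.18 to 0.21, adjusted p-value 0.883 in edgeR). The sign of that value is not settled, since scaling by total counts gave -0.09.

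WIPI1 reads the lipid made by the PI3 kinase complex on the growing membrane. It had 14.54 and 14.2 CPM in JJN3 with DMSO and 8.64 and 11.47 CPM with THZ1. Both THZ1 values were below both DMSO values and differed from each other by more than the DMSO values did. The log2 fold change was -0.41 (SE 0.149, 95% interval -0.74 to -0.08), with an adjusted p-value of 0.0336 in edgeR. It was -0.60 without the second THZ1 library, past the limit, and -0.25 without the first, with an adjusted p-value of 0.141 in edgeR. DESeq2 gave -0.40 with an adjusted p-value of 0.107. ATG5, whose product conjugates with ATG12 to attach ATG8 proteins to membrane, had 73.41 and 79.71 CPM with DMSO and 61.8 and 68.82 CPM with THZ1. Its log2 fold change of -0.13 (SE 0.0839, 95% interval -0.31 to 0.06) did not pass the test, with an adjusted p-value of 0.218 in edgeR.

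The cargo receptor SQSTM1 had 209.7 and 208.2 CPM in JJN3 with DMSO and 198.4 and 227.9 CPM with THZ1. It was the only one of the 10 genes whose JJN3 groups overlapped, with the DMSO libraries lying between those with THZ1. Its log2 fold change was 0.13 (SE 0.0838, 95% interval -0.05 to 0.32, adjusted p-value 0.199 in edgeR). Without the first THZ1 library it was 0.20, with an adjusted p-value of 0.0279 in edgeR and still under the limit. As a fold change, the interval over all 4 libraries ran from 0.964 to 1.24. It measures the spread between these libraries, which may be technical. TFEB had 11.93 and 11.27 CPM with DMSO and 6.752 and 9.792 CPM with THZ1, without overlap. Its log2 fold change of -0.38 (SE 0.173, 95% interval -0.77 to -0.00) had an adjusted p-value of 0.0781 in edgeR. As for WIPI1, the second THZ1 library moved the value: it was -0.65 without that library, with an adjusted p-value of 0.00380 in edgeR, and -0.17 without the first THZ1 library.

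**Figure D2:**
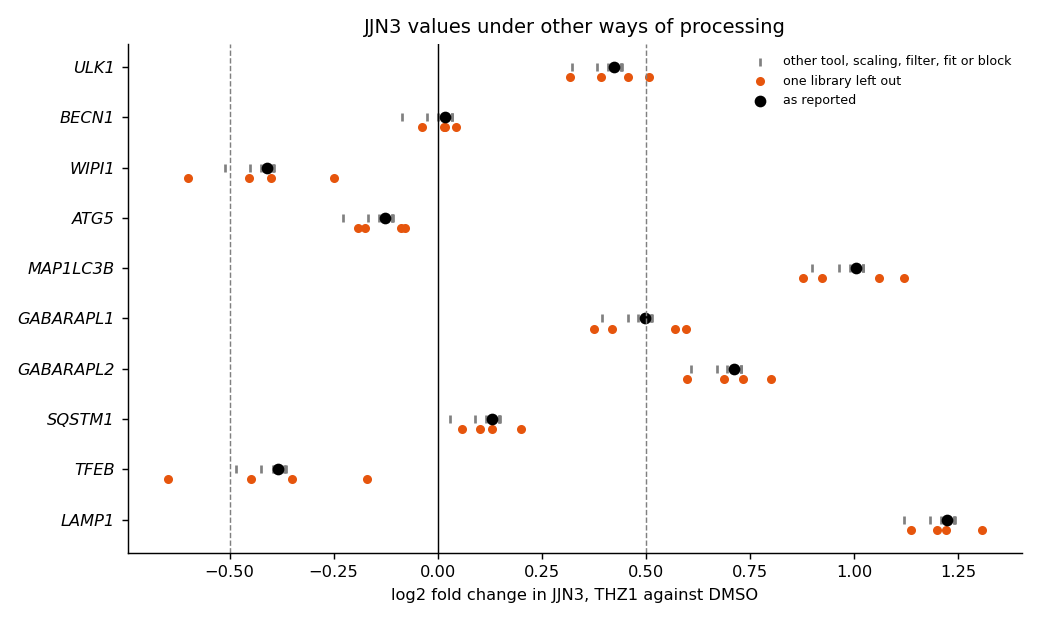
Log2 fold change of each gene in JJN3, THZ1 against DMSO (horizontal axis), as reported (black), with 1 library left out (orange) and under another tool, scaling, filter, fit or replicate block (grey ticks), with dashed lines at the limit of 0.5 in each direction. LAMP1, MAP1LC3B and GABARAPL2 stay beyond 0.5 in each of these settings, GABARAPL1 lies on both sides of it (0.38 to 0.60), and WIPI1 (-0.60 to -0.25) and TFEB (-0.65 to -0.17) spread most.

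All values are relative to the library. Scaling by total counts instead of TMM moved the median of all genes in JJN3 by -0.10 on the log2 scale, and 39.3% instead of 49.2% of the genes called were then higher. BECN1, the gene nearest to 0, then changed sign. Plasma cell markers summed to 2089 to 2125 CPM in JJN3 with DMSO and 1387 to 1411 CPM with THZ1, although PRDM1 among them had 175.9 and 159.9 CPM with DMSO and 229.5 and 210.1 CPM with THZ1. T cell markers summed to 2.149 to 2.501 CPM with DMSO and 5.41 to 5.44 CPM with THZ1, with CD3D, CD3G and CD2 at or under 3 counts. Stromal and epithelial markers summed to 70.9 to 75.0 CPM with DMSO and 70.4 to 82.9 CPM with THZ1, of which EPCAM made up 64.7 to 78.6 CPM. Myeloid markers summed to at most 0.458 CPM. The part of these marker differences in the changes above was not tested.

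Levels can be compared between the genes only per length. In JJN3 with DMSO, LAMP1 (33.8 ± 0.650 RPKM, SD, n = 2), GABARAPL2 (29.5 ± 3.18), SQSTM1 (27.7 ± 0.149) and MAP1LC3B (22.6 ± 1.71) were the highest, and ULK1 (2.73 ± 0.231) and TFEB (1.73 ± 0.0698) the lowest. LAMP1 did not overlap with GABARAPL2, and GABARAPL2 overlapped with SQSTM1. With THZ1, LAMP1 reached 73.4 ± 4.02 RPKM and MAP1LC3B (42.1 ± 3.81) passed SQSTM1 (28.3 ± 2.77). The order at the top depended on the length used. Per length of the canonical transcript, an alternative chosen after seeing the data, GABARAPL2 was highest with DMSO (91.1 RPKM, beside 73.6 for SQSTM1 and 71.8 for LAMP1), and the ratio of LAMP1 to GABARAPL2 was 0.789 in place of 1.15. With THZ1 LAMP1 was highest by both lengths, at 1.64 and 1.12 times GABARAPL2.

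**Figure D3:**
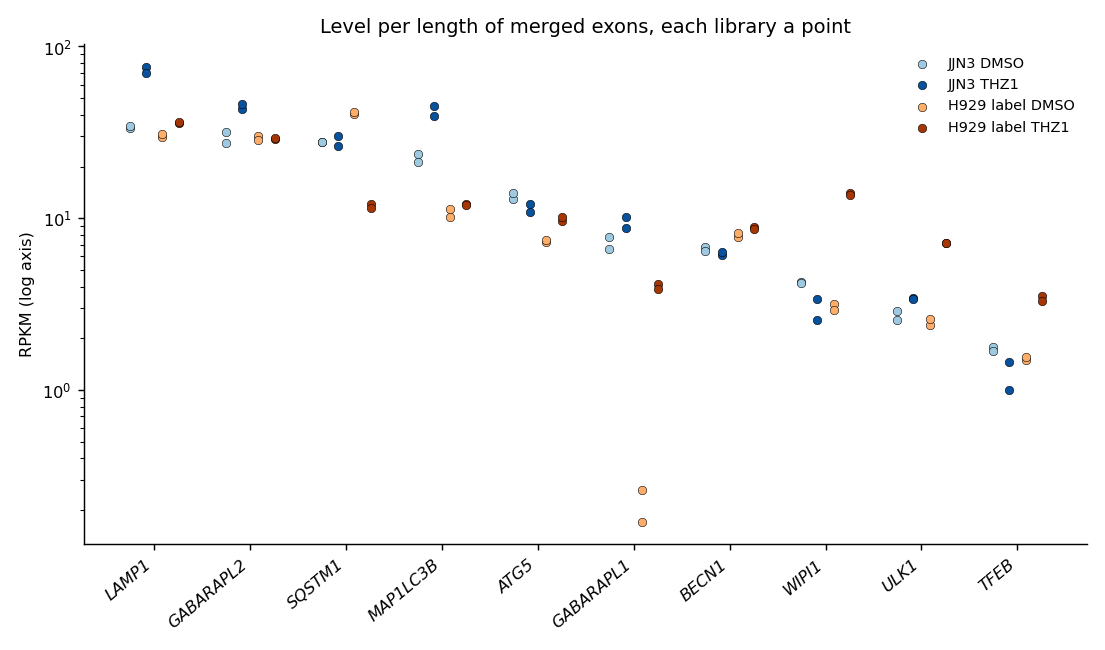
Level of each gene per length of its merged exons (RPKM, log axis), each library a point, with genes ordered by their mean in JJN3 with DMSO. LAMP1, GABARAPL2, SQSTM1 and MAP1LC3B lie highest in JJN3, and GABARAPL1 in the libraries labelled H929 DMSO (0.171 and 0.260 RPKM) is the lowest value in the plot.

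The genes called between the H929 labels were not those called in JJN3. GABARAPL1, WIPI1, ULK1 and TFEB were higher in those labelled THZ1, by 18.0-fold, 4.38-fold, 2.80-fold and 2.17-fold, and SQSTM1 was lower, at 0.278 of its level in those labelled DMSO. GABARAPL2 and BECN1 did not pass the test, and neither did MAP1LC3B, whose adjusted p-value of 0.147 in edgeR became 0.0427 with total counts. The 4 genes called higher stand beside 33.1% of the 14863 genes tested, and the 1 called lower beside 32.6%, so that 5 of the 10 were called against 65.7% of all genes. Regardless of size, 7 of 10 had an adjusted p-value under 0.05 in edgeR, beside 81.9% of all genes. CPM did not overlap for 9 of the 10, beside 90.9% of all genes. The median log2 fold change was 0.29 over the 10 genes and 0.01 over all genes (in absolute value 0.75 and 0.87).

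SQSTM1 had 304.6 and 312.4 CPM in the libraries labelled H929 DMSO and 91.03 and 86.14 CPM in those labelled H929 THZ1. The first pair was the highest of the 4 groups and the second the lowest, with both JJN3 groups between them. The log2 fold change was -1.85 (SE 0.0545, 95% interval -1.96 to -1.73), with an adjusted p-value of 4.70e-14 in edgeR. The 3 genes whose centred log2 CPM over the 8 libraries lay nearest to SQSTM1, of 8958 compared, were ZNF549, PARVB and IFNGR2, with a root mean square difference of 0.0626, 0.0895 and 0.0914. That likeness is largely one of the H929 labels, between which the 3 genes had log2 fold changes of -1.90, -1.71 and -1.92.

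GABARAPL1 had 13 and 19 counts, or 0.693 and 1.053 CPM, in the libraries labelled H929 DMSO, and 311 and 287 counts, or 16.87 and 15.7 CPM, in those labelled H929 THZ1. The log2 fold change was 4.17 (SE 0.205, 95% interval 3.73 to 4.60, adjusted p-value 2.05e-11 in edgeR), and rests on the low counts with DMSO. It was 4.50 without the second library labelled H929 DMSO, the one holding kappa counts, and 3.89 without the first. Over the 4 groups its mean CPM spanned 43.9-fold, the widest of the 10 genes, in the order JJN3 with THZ1, JJN3 with DMSO, H929 labelled THZ1 and H929 labelled DMSO, with no overlap between neighbours. GABARAPL1 made up 0.410% and 0.671% of the RPKM of the 3 ATG8 genes with the label H929 DMSO and 9.23% and 8.56% with the label H929 THZ1, while GABARAPL2 made up 64.1% to 73.2% in all 4.

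WIPI1 had 10.77 and 9.979 CPM in the libraries labelled H929 DMSO and 47.85 and 46.32 CPM in those labelled THZ1, a log2 fold change of 2.13 (SE 0.0930, adjusted p-value 4.80e-12 in edgeR). ULK1 had 18.12 and 19.68 CPM with the DMSO label and 54.85 and 54.58 CPM with the THZ1 label, a log2 fold change of 1.48 (SE 0.0804, adjusted p-value 6.78e-11 in edgeR). TFEB had 9.968 and 10.48 CPM with the DMSO label and 23.6 and 22.26 CPM with the THZ1 label, a log2 fold change of 1.12 (SE 0.108, adjusted p-value 9.27e-08 in edgeR). In all 3 genes the libraries labelled H929 THZ1 lay above every other library of the study.

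ATG5 had 41.31 and 42.3 CPM in the libraries labelled H929 DMSO and 54.79 and 57.48 CPM in those labelled THZ1, and its log2 fold change of 0.38 (SE 0.0696, adjusted p-value 0.000119 in edgeR) was under the limit. LAMP1 had 170.2 and 178.2 CPM with the DMSO label and 206.6 and 208.1 CPM with the THZ1 label, and its log2 fold change of 0.20 (SE 0.0512, adjusted p-value 0.00177 in edgeR) was under the limit as well. Neither gene overlapped between the labels. MAP1LC3B had 56.88 and 50.95 CPM with the DMSO label and 60.6 and 60.32 CPM with the THZ1 label, and its log2 fold change of 0.12 had a 95% interval of -0.04 to 0.27. Without the first library labelled H929 DMSO it was 0.20 (adjusted p-value 0.0499 in edgeR), and without the second 0.05. GABARAPL2 had 91.05 and 85.38 CPM and 87.07 and 88.49 CPM, the only one of the 10 genes that overlapped, with an interval of -0.18 to 0.07. BECN1 had 50.11 and 52.83 CPM and 56.64 and 55.29 CPM, with an interval of -0.07 to 0.22. BECN1 was also the steadiest of the 10 over the 4 groups, its highest mean being 1.40 times its lowest.

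**Figure D4:**
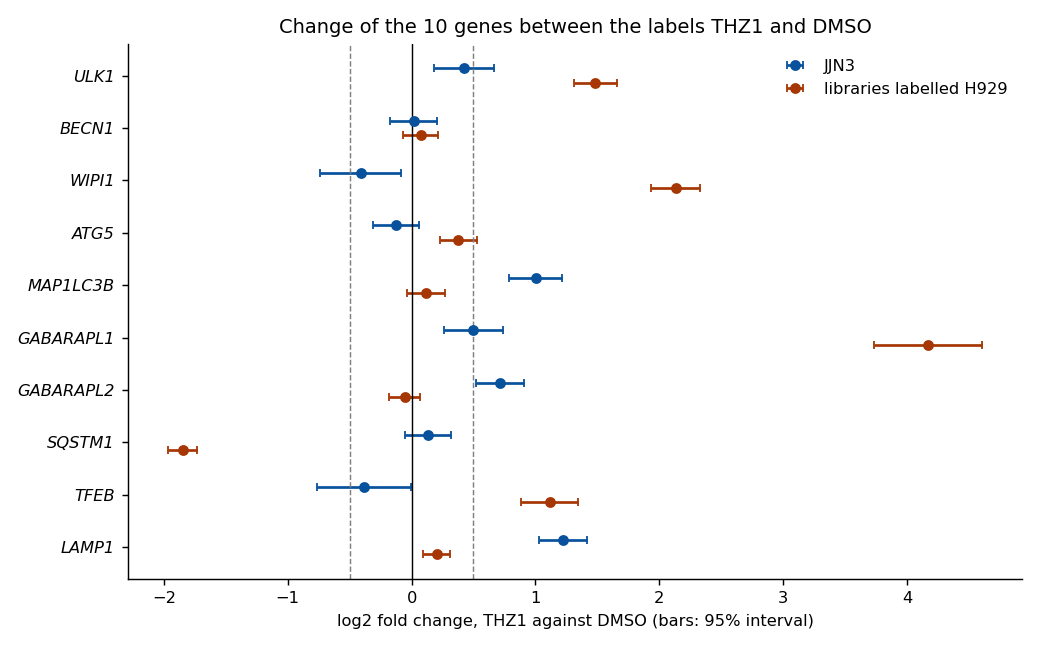
Log2 fold change of each gene, THZ1 against DMSO (horizontal axis), with its 95% interval, in JJN3 (blue) and between the libraries labelled H929 (brown), with dashed lines at the limit of 0.5. LAMP1 (1.22 and 0.20), MAP1LC3B (1.00 and 0.12) and GABARAPL2 (0.71 and -0.06) lie farther right in JJN3, and GABARAPL1 (0.50 and 4.17), WIPI1 (-0.41 and 2.13), ULK1 (0.42 and 1.48) and TFEB (-0.38 and 1.12) farther right between the H929 labels.

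The difference between these changes was itself tested over all 8 libraries, as the log2 fold change between the H929 labels minus that in JJN3. It passed an adjusted p-value of 0.05 in edgeR for 9 of the 10 genes, beside 62.0% of the 16122 genes tested. The remaining gene was BECN1, with a difference of 0.07 (95% interval -0.16 to 0.29, adjusted p-value 0.634 in edgeR). The differences ran in both directions, from -1.97 (SE 0.100) for SQSTM1 to 3.68 (SE 0.241) for GABARAPL1. The light chain counts also differ between the H929 labels. In all of these differences the source of the cells cannot be told apart from the treatment.

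The other genes of the pathway were counted over 12 lists of 176 genes in all, the 10 genes included. The lists were also written with earlier results known, so their counts are a description. Of the 168 that could be tested in JJN3, 59 (35.1%) were called higher and 13 (7.74%) lower, beside 20.6% and 21.3% of all genes, with a median log2 fold change of 0.26. Without the 10 genes, 56 of 158 were called higher and 13 lower. Of 39 hydrolases and activators tested, 19 were called higher and 4 lower (median 0.47). PSAP, the precursor of the saposins that assist lipid degradation, had the largest rise, from 6621 and 7131 counts to 15416 and 15415, a log2 fold change of 1.36 (SE 0.0975). NAGLU, which degrades heparan sulfate, fell from 213 and 223 counts to 108 and 100, a log2 fold change of -0.87 (SE 0.161). The adjusted p-values in edgeR were 1.59e-06 and 0.000767. The 16 subunits and accessory proteins of the V-ATPase, the proton pump that acidifies the lysosome, held 9 genes called higher and none called lower by edgeR, by DESeq2 or at an unadjusted p-value under 0.05 (median 0.53). ATP6AP1 had the largest log2 fold change of them, 1.07 (SE 0.0764, adjusted p-value 1.57e-06 in edgeR).

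Of 13 lysosomal membrane proteins, 5 (38.5%) were called higher and 2 (15.4%) lower, beside 20.6% and 21.3% of all genes tested. Beside LAMP1, SCARB2, the receptor that carries glucocerebrosidase to the lysosome, rose by 0.97 on the log2 scale (SE 0.0793), and SLC38A9, the arginine sensor of mTORC1, fell by 1.02 (SE 0.103), with adjusted p-values of 3.34e-06 and 1.26e-05 in edgeR. In the ATG8 family 4 of 6 were called higher, which are MAP1LC3B, GABARAPL2, MAP1LC3A with 24 and 39 counts against 47 and 47, and MAP1LC3B2 with 5 and 1 counts against 16 and 21. The last is uncertain, since the gene identifier that the deposited symbols call MAP1LC3B2 is not the one that GENCODE v44 gives that name, for which the JJN3 counts were 1 and 2 (DMSO) against 2 and 0 (THZ1). Of 14 cargo receptors, 7 were called higher, led by WDFY3, a scaffold for aggregate clearance (1.14, SE 0.134, adjusted p-value 3.40e-05 in edgeR), while SQSTM1 was not called. No cargo receptor was called lower by edgeR or DESeq2, with 1 lower at an unadjusted p-value under 0.05.

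In the ULK1 kinase complex 1 of 4 genes (25%) was called higher, beside 20.6% of all genes tested. It was RB1CC1 (FIP200), whose log2 fold change of 1.21 (SE 0.0840) compares with 0.42 for ULK1. In the class III PI3 kinase complex 1 of 9 (11.1%) was called higher, ATG14 (1.03, SE 0.135), which directs the complex to autophagy. BECN1 had 0.02. Among genes of phagophore growth 2 of 9 (22.2%) were called higher, led by the lipid transfer protein gene ATG2B (0.82, SE 0.0846). The adjusted p-values of RB1CC1, ATG14 and ATG2B were 1.35e-06, 7.06e-05 and 1.42e-05 in edgeR. In the ATG8 conjugation machinery, which includes ATG5, 2 of 10 (20%) were called lower by edgeR, beside 21.3% of all genes tested. DESeq2 called 1 lower. The 2 were ATG10 (-0.80, SE 0.155, adjusted p-value 0.00105 in edgeR), the ligase that joins ATG12 to ATG5, and ATG4C (-0.51, just past the limit). None of that list was called higher by edgeR or DESeq2, with 1 higher at an unadjusted p-value under 0.05.

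Of TFEB, its relatives, FOXO factors and their regulators, 3 of 9 (33.3%) were called higher, beside 20.6% of all genes tested. They are MITF, FNIP1 and FNIP2. FNIP2, a partner of folliculin, had the largest log2 fold change, 1.30 (SE 0.0900, adjusted p-value 1.35e-06 in edgeR). The mTORC1, Rag, TSC and AMPK genes held 6 of 26 called higher (23.1%) and 4 lower (15.4%), beside 20.6% and 21.3% of all genes. SESN1, a sestrin that restrains mTORC1, rose by 1.58 (SE 0.0862) and MLST8, a subunit of mTORC1, fell by 1.06 (SE 0.0801) on the log2 scale, with adjusted p-values of 6.81e-07 and 2.10e-06 in edgeR. Of 13 genes of autophagosome to lysosome fusion, 2 (15.4%) were called higher, led by the tether EPG5 (1.13, SE 0.0922). The 1 called lower (7.69%) was VPS11 of the HOPS complex (-0.56, SE 0.0820).

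**Figure D5:**
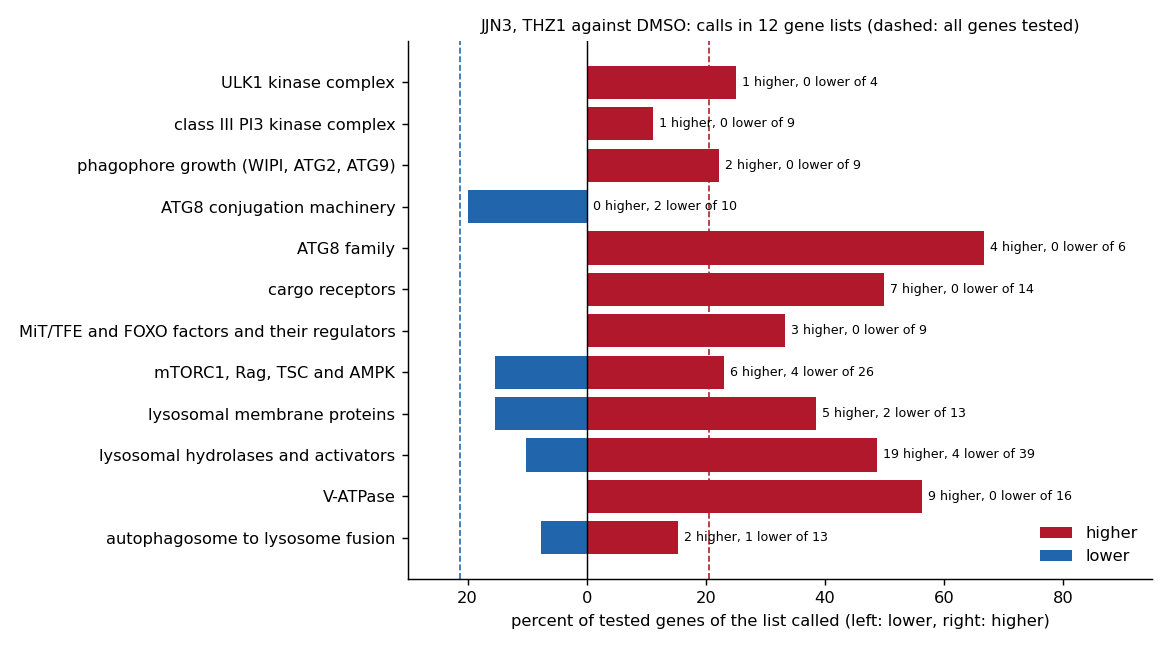
Percent of the tested genes of each of 12 lists that were called higher (red, to the right) or lower (blue, to the left) in JJN3 after THZ1, with dashed lines at the percent of all genes tested called in that direction (20.6% and 21.3%). The V-ATPase (9 of 16), the ATG8 family (4 of 6), the cargo receptors (7 of 14) and the lysosomal hydrolases (19 of 39) extend farthest to the right.

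Between the H929 labels, 66 of the 171 listed genes tested (38.6%) were called higher and 29 (16.96%) lower, beside 33.1% and 32.6% of all genes. The V-ATPase had 8 of 16 called higher and 1 lower, and the hydrolases 17 of 41 higher and 10 lower. Some genes named above had opposite signs in JJN3 and between the H929 labels, at an adjusted p-value under 0.05 in edgeR in both. Of those called higher in JJN3, MITF (0.73) had a log2 fold change of -2.64 between the H929 labels, FNIP2 one of -0.65, PSAP one of -0.45 and ATG2B one of -0.33. Of those called lower in JJN3, VPS11 had one of 1.76, ATG4C one of 0.80 and NAGLU one of 0.33.

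The counts of the 10 genes come from 50-base reads that mapped to a single place, so sequence shared with other loci is not counted. In GRCh37, the build of the counts, between 92.5% (MAP1LC3B) and 100% (ULK1) of the 50-base windows of their exons occurred once in the genome on either strand. MAP1LC3B (chromosome 16, 87417559 to 87438385, plus strand) shared 5.84% of its windows with the gene that GENCODE v44 names MAP1LC3B2, which had at most 9 counts in any library. GABARAPL1 (chromosome 12, 10365057 to 10375727, plus strand) shared 0.814% with GABARAPL3, which had at most 3 counts in any library. Without a stated strand setting, reads of genes overlapping on opposite strands cannot be told apart either. WIPI1 (chromosome 17, 66417089 to 66453654, minus strand) shared 24.4% of its exon bases with ARSG, which had 110 to 332 counts per library. ARSG also differed between the H929 labels, with a log2 fold change of 1.40. In JJN3 it had 0.37 (adjusted p-value 0.0737 in edgeR), where WIPI1 had -0.41. SQSTM1 (chromosome 5, 179233398 to 179265078, plus strand) shared 21.0% with C5orf45 and 1.39% with MGAT4B. Between the H929 labels C5orf45 had a log2 fold change of -0.81 (adjusted p-value 2.99e-05 in edgeR) and MGAT4B one of -2.05, both in the direction of SQSTM1, and in JJN3 they had 0.04 and 0.44. BECN1 (chromosome 17, 40962152 to 40985367, minus strand) shared 12.4% with CNTD1, which had 4 to 11 counts, and 4.68% with PSME3, which had 4405 to 8492 counts and a log2 fold change of -0.73 in JJN3. The part of these neighbours in the values of WIPI1, SQSTM1 and BECN1 was not tested. LAMP1 (chromosome 13, 113951554 to 113977987, plus strand), GABARAPL2 (chromosome 16, 75600273 to 75611779, plus strand), ULK1 (chromosome 12, 132379167 to 132407695, plus strand) and ATG5 (chromosome 6, 106493298 to 106773666, minus strand) shared no exon base with another annotated gene. TFEB (chromosome 6, 41651716 to 41703997, minus strand) shared 1.71% with a noncoding RNA of at most 2 counts.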

How the data were processed

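RNA of JJN3 and H929 cells was sequenced by the study as single-end 50 base reads. The authors aligned them to hg19 with STAR 2.5.2a, kept reads mapping to a single place, and deposited raw counts per Ensembl gene made with featureCounts, without normalization. The strand setting is not given in the sources used here. Gene symbols came from the deposited table of the authors' DESeq2 1.12.4 comparison in JJN3. That table and the one for H929 hold the authors' mean signal, log2 fold changes, scores and p-values, which were not used.

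Each line was fitted alone in R 4.3.3 with edgeR 4.0.16 (TMM, filterByExpr, quasi-likelihood test, Benjamini-Hochberg adjustment over all genes tested), and the difference between lines as an interaction over all 8 libraries. The limits on the adjusted p-value and the fold change were those by which the study picked genes sensitive to THZ1, applied here in both directions to all genes. The scripts were tested on simulated data. CPM used total counts, which were 17476443 to 19194371 per library. RPKM used exons merged over the transcripts of GENCODE v44 lifted to GRCh37, which is not the annotation the authors counted with. Alternatives were DESeq2 1.42.0, scaling by total counts or by DESeq2 size factors, another filter (1 CPM in 2 libraries) or none, one fit of all 8 libraries, a block for the replicate number, no limit or a limit of 1 on the log2 fold change, and each library left out in turn.

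The 10 genes and the lists were chosen with earlier results of these data known. Named besides the 10 genes were, per list, the gene called lower and the gene called higher in JJN3 with the largest change (average log2 CPM 3 or more), the 3 genes nearest to SQSTM1 in profile, and genes sharing sequence or exons with the 10. ATG4C, MAP1LC3A, MITF and FNIP1 fall outside that rule and were named after their values were seen, to complete counts of 5 or fewer.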

Additional observations from a re-analysis of the deposited data

Results flagged for a closer look

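The change between the labels THZ1 and DMSO differed between JJN3 and the libraries labelled H929, by edgeR's test of the difference itself, for 9 of the 10 genes, beside 62.0% of all genes tested. The difference, as the log2 fold change between the H929 labels minus that in JJN3, was 3.68 for GABARAPL1, 2.55 for WIPI1, 1.51 for TFEB, 1.07 for ULK1 and 0.51 for ATG5, all toward higher values between the H929 labels. It was -1.97 for SQSTM1, -1.01 for LAMP1, -0.88 for MAP1LC3B and -0.76 for GABARAPL2. WIPI1 and TFEB had opposite signs in JJN3 (-0.41 and -0.38) and between the H929 labels (2.13 and 1.12), and so had SQSTM1 (0.13 and -1.85), ATG5 (-0.13 and 0.38) and GABARAPL2 (0.71 and -0.06). Of these 5, only WIPI1 passed an adjusted p-value of 0.05 in edgeR in both comparisons. The libraries labelled H929 differed between the labels in their light chain (lambda share 98.0% or more against 0.212% or less), so these differences cannot be read as differences in the response to THZ1. Groups of 2 libraries were not examined for single libraries far from the rest.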

How the results depend on the processing

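Between the H929 labels 4 genes were called higher and 1 lower under every alternative run except that without a limit on the fold change, where 6 were higher, and the count of 9 genes with a tested difference between the lines held throughout. All 110 alternative values of single genes between the H929 labels and all 140 of the difference kept their direction and their call, which takes the adjusted p-value and the size together. In JJN3, 98 of 110 did so. On the adjusted p-value alone, MAP1LC3B between the H929 labels crossed 0.05 with total counts (0.0427) and without the first DMSO library (0.0499). The count called lower in JJN3 was 0 as reported. With every library kept, it was 1 with total counts and 1 with no limit on the fold change (WIPI1 both times). Without the second JJN3 library with THZ1 the log2 fold changes of WIPI1 and TFEB were -0.60 and -0.65, both past the limit, so this count also depended on that library. The count called higher in JJN3 was 3 as reported. With every library kept, it was 5 with no limit on the fold change and 2 with a limit of 1. It was 4 with DESeq2, its size factors or the filter of 1 CPM. It also depended on single libraries. When these were left out in turn, the log2 fold changes of GABARAPL1 (0.38 to 0.60) and ULK1 (0.32 to 0.51) lay on both sides of the limit. BECN1 changed sign in JJN3 with total counts (-0.0862), with no filter (-0.0248) and when single libraries were left out (-0.039 to 0.0428), never passing the test. WIPI1 passed the limit at -0.51 with total counts, and GABARAPL1 at 0.51 with DESeq2 or its size factors and at 0.52 with the filter of 1 CPM. The pathway lists held 51 to 60 genes called higher and 12 to 17 lower in JJN3 under the other tool and scalings. By the canonical transcript, chosen after seeing the data, the ratio of LAMP1 to GABARAPL2 was 0.789 (JJN3 with DMSO), 1.12 (JJN3 with THZ1), 0.712 (labelled H929 DMSO) and 0.852 (labelled H929 THZ1). The causes of these shifts were not tested.

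Same-numbered libraries did not deviate together (correlation -0.02 in JJN3 and -0.04 in H929). That alone cannot settle whether the numbers mark paired cultures. With the replicate number as a block 3 genes were called higher and 0 lower in JJN3, and 4 and 1 between the H929 labels, with 9 tested differences, as without it. Depth limits mainly GABARAPL1 in the libraries labelled H929 DMSO (13 and 19 counts), and 2 libraries per group limit the precision of all values.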
